A study of Mus musculus with 6 samples.

Results

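Purinergic signalling genes, a group of 10 that encodes enzymes acting on nucleotides and adenosine and the receptors that sense them, were followed in the cerebral cortex of mice labelled as knockouts of quaking (Qk). The 10 genes (Entpd1, Entpd2, Entpd3, Nt5e, P2ry1, P2rx4, P2rx7, Adora1, Adora2b and Adk) were picked by gene symbol out of 35857 gene rows, and each symbol matched 1 row. They were selected on function and with the control and knockout values of this same contrast already known, among them the fall of Entpd2. Their values are therefore a description, and the adjusted p-values printed for them only place each gene in the fit across all genes. Polyadenylated RNA was sequenced from C57BL/6 cerebral cortex, taken at postnatal day 7 from 3 controls, labelled wild type, and from 3 knockouts, labelled Qk-/-. Which exons were removed, by what means and in which cells is not given in the sources used here. Expression was deposited as TPM, a transcript abundance scaled to gene length and to the same total in every library, so levels of different genes can be compared, while the depth behind a value is unknown. In bulk tissue, fewer cells of a type and less RNA per cell cannot be told apart.

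Cells release ATP, which acts on ion channels of the P2X family and on G protein-coupled receptors of the P2Y family. Ectonucleoside triphosphate diphosphohydrolases (NTPDases, encoded by Entpd genes) remove phosphates from ATP and ADP outside the cell, and the ecto-5'-nucleotidase CD73, encoded by Nt5e, turns AMP into adenosine, the ligand of the Adora receptors. Adenosine is cleared by uptake into cells, where adenosine kinase (Adk) phosphorylates it. In the brain these steps are shared among cell types: NTPDase2 is known from astrocytes and neural progenitors, CD39 (Entpd1) from microglia and blood vessels, and adenosine kinase of the mature brain mainly from astrocytes.

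The upstream sequences of the 3 genes whose knockout and control values did not overlap are shown first, so that their values below can be read beside them. Each is the 250 bases before the RefSeq transcription start (GRCm38.p6), written 5' to 3' on the gene's strand, with capitals marking GGGCGG or its reverse complement, known as the GC box bound by SP1. The Entpd2 window is chr2:25395624-25395873 (plus strand), that of Adora2b is chr11:62248734-62248983 (plus strand) and that of P2rx7, at the first of its 2 listed starts, is chr5:122643677-122643926 (plus strand).
Entpd2: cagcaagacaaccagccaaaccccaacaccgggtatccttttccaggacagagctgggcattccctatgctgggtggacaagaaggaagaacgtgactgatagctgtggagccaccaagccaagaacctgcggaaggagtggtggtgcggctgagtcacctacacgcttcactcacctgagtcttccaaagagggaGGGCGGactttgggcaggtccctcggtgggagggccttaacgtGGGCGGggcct
Adora2b: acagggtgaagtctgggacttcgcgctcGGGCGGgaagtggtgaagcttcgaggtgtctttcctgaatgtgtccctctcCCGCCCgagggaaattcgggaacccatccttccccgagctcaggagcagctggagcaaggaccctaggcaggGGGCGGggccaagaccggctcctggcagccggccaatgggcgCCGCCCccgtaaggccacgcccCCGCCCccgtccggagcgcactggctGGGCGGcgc
P2rx7: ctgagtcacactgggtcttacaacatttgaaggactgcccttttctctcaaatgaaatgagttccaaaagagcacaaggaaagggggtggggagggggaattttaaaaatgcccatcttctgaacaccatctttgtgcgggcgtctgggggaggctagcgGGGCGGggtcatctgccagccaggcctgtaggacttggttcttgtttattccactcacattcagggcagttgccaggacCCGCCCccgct

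The Entpd2 window held the letters 54 and 11 bases before the start, and the P2rx7 window shown 90 and 11 bases before it, while the second P2rx7 window held 0 matches. The Adora2b window held 6 matches and was 69.6% G and C, against a median of 52.4% over all promoters of the table. Of 14 windows listed for the 10 genes, 8 held GGGCGG on either strand, beside 32.7% of all 32851 RefSeq windows of this length. That share was not limited to genes tested here, and the 14 windows ranged from 47.2% to 75.2% G and C. The 8 windows cover 7 of the 10 genes. Both Adk windows, the first of the 2 Adora1 windows and the Nt5e and P2ry1 windows held GGGCGG too, and the values of those genes overlapped between groups. TTCNNNGAA, letters known from STAT sites, was in 0 of the 14 windows and in 7.02% of all windows. CACGTG, the E box, was in 1, that of Entpd3, and in 6.02% of all. A match describes these letters in this window only.

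Quaking binds RNA at a core of ACTAAC or ACTAAT (U for T in the RNA), usually with TAAC or TAAT nearby, so the longest annotated 3' UTR of each gene was searched on the transcript strand (GENCODE M21, GRCm38). The core was present in 3 of the 10 genes, shown in capitals within 30 bases. They lie at chr11:62266093-62266122 for Adora2b, chr9:120567004-120567033 for Entpd3 and chr3:61007485-61007514 for P2ry1, each on the plus strand and in the 3' UTR of the last exon.
Adora2b: aaagttggctctACTAATgaatacttgttc
Entpd3: ctatctcaagtcACTAATgcttttttttta
P2ry1: cttagccaggacACTAACccatcgtgatat

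Only the P2ry1 core had TAAC or TAAT within 1 to 20 bases of it. The Entpd2 3' UTR, of 348 bases, held 0 cores, and 11.5% of 1091 tested genes with a 3' UTR of like length (0.8 to 1.25 times as long) held at least 1. For Adora2b, with 728 bases and 1 core, the share among genes of like length was 19.6%. Over all 13452 tested genes with a 3' UTR, 34.8% held a core and 14.3% a core with TAAC or TAAT nearby. Whether quaking binds any of these transcripts in the cortex was not measured here.

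Qk itself was at 36.5, 43.2 and 41.3 TPM in control libraries 1, 2 and 3 and at 14.6, 15.2 and 15.4 TPM in the knockout libraries, so the libraries followed their labels. The knockout mean was 0.373 times the control level, so part of the Qk transcript was still counted in this tissue. Of 35857 genes, 14994 had a mean of at least 1 TPM and were tested with limma on log2(TPM + 1), and 43 genes were lower and 15 higher in the knockout at a Benjamini-Hochberg adjusted p under 0.05. All 10 members passed the expression filter. The astrocyte marker list (Slc1a3, Slc1a2, Aqp4, Gfap, Aldh1l1, Aldoc, Gja1, S100b, Mlc1 and Atp1b2) had 4 of 10 genes lower, namely Slc1a3, Gja1, S100b and Mlc1. Its summed level was 1291 to 1385 TPM in control and 996 to 1045 TPM in knockout libraries. Radial glia (1 of 8 lower, 1 higher), oligodendrocyte precursors (1 of 6 lower, 1 higher) and oligodendrocytes (2 of 5 tested lower; Mobp, a gene of mature myelin, was under 1 TPM) also had calls. The 10 microglial, 6 endothelial, 6 pericyte, 6 meningeal, 5 choroid plexus, 6 excitatory neuron and 6 interneuron markers had 0. Other summed levels were also apart between groups. Oligodendrocyte markers summed to 222.6 to 232.0 TPM in control and 132.8 to 148.2 TPM in knockout libraries. Pericyte markers summed to 248.1 to 268.3 and 204.5 to 229.6 TPM, and interneuron markers to 1633 to 1872 and 2071 to 2140 TPM. Over all libraries Vtn made up 65.1% of the pericyte sum and Sst 61.7% of the interneuron sum. Vtn stood at 0.803 times the control mean, and the other pericyte markers at 0.822 (Kcnj8) to 0.960 (Rgs5). Sst and Npy stood at 1.246 and 1.242 times it, and Gad1, Gad2, Slc32a1 and Lhx6 at 1.042, 1.009, 1.005 and 1.017. The microglial and precursor sums, given below, were apart as well.

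Of the 10 genes, 1 passed the threshold downwards, Entpd2, beside 0.287% of all genes tested, and 0 passed upwards, beside 0.1% of all genes. With limma and no adjustment, p was under 0.05 for 2 lower genes (Entpd2 and Adora2b) and 1 higher gene (P2rx7), beside 5.3% of all genes tested lower and 3.42% higher. In these 3 genes the libraries of the groups did not overlap: all knockout values lay below all control values in 2, as in 8.98% of all genes tested, and above them in 1, as in 5.2%. The other 7 genes overlapped between groups. The median log2 change of the 10 genes was −0.001, beside −0.026 over all genes tested. Since the genes were picked with this contrast known, nothing is read from these counts.

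**Figure D1:**
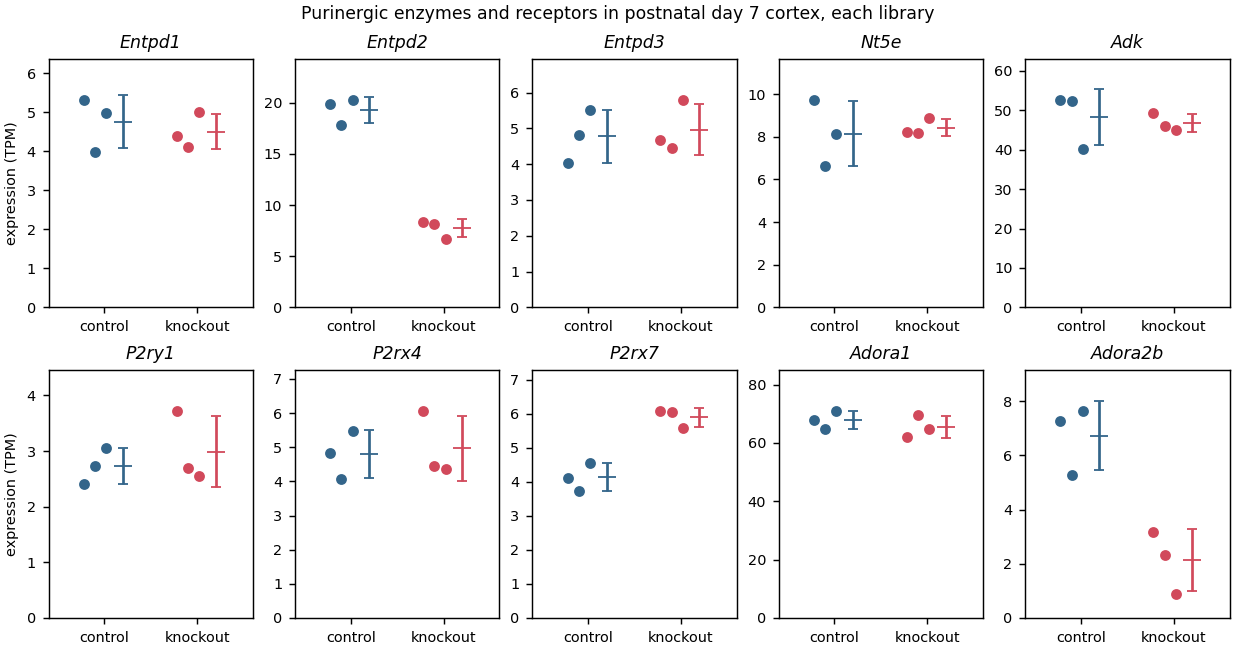
Expression in TPM (vertical axes from 0) of the 10 genes in each library, control in blue and knockout in red; points are libraries 1 to 3 from left to right, and the bar beside them is the mean ± SD (n = 3). Entpd2 and Adora2b were lower and P2rx7 higher in every knockout library than in every control library, while the other 7 genes overlapped.

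The enzymes of the first step showed an uneven picture, with 1 of 3 NTPDase genes lower. Entpd2 encodes NTPDase2, a cell-surface enzyme that prefers ATP over ADP and so leaves ADP behind. It was at 19.9, 17.8 and 20.2 TPM in control libraries 1, 2 and 3 and at 8.38, 8.15 and 6.72 TPM in the knockout libraries. The lowest control value was therefore more than double the highest knockout value, and the libraries of each group lay close together. The mean fell from 19.3 ± 1.29 to 7.75 ± 0.90 TPM (SD, n = 3), 0.401 times the control level, with a log2 change of −1.22 (SE 0.12, 95% interval −1.49 to −0.95, limma adjusted p = 0.00358). The gene lies on chromosome 2 from 25395874 to 25401321 (GRCm38, plus strand). Of its 2128 exon bases, 612 are shared with exons annotated to the next gene, Npdc1, on the same strand, and reads there could be counted to either. The control libraries held Npdc1 at 331 to 351 TPM and the knockout libraries at 299 to 355 TPM, which overlap. These levels are far above those of Entpd2, and the part of the shared stretch in the Entpd2 values was not tested.

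Entpd1 encodes CD39, which takes ATP and ADP down to AMP. It was at 5.30, 3.99 and 4.99 TPM in control libraries and 4.40, 4.11 and 5.0 TPM in knockout libraries, with a log2 change of −0.06 (95% interval −0.42 to 0.30). Entpd3, encoding NTPDase3, a surface enzyme known mainly from neurons, was at 4.02, 4.81 and 5.50 TPM in control libraries and 4.67, 4.45 and 5.78 TPM in knockout libraries. Its log2 change was 0.05 (95% interval −0.33 to 0.42). For both, the knockout values fell within or close to the control range, and the intervals allow changes of either sign.

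Because TPM is per length, the transcripts of the 3 surface NTPDases can be added up. Their sum was 29.2, 26.6 and 30.7 TPM in control libraries and 17.5, 16.7 and 17.5 TPM in knockout libraries, a mean of 0.597 times the control level. Entpd2 made up 68.1%, 67.0% and 65.8% of this sum in control libraries and 48.0%, 48.8% and 38.4% in knockout libraries. The share of Entpd1 accordingly stood at 16.5% ± 1.60 in control and 26.1% ± 2.14 in knockout libraries, and that of Entpd3 at 16.6% ± 2.43 and 28.8% ± 3.66 (SD, n = 3). These shares carry the change of Entpd2, which was known when the genes were picked, and were not tested.

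**Figure D2:**
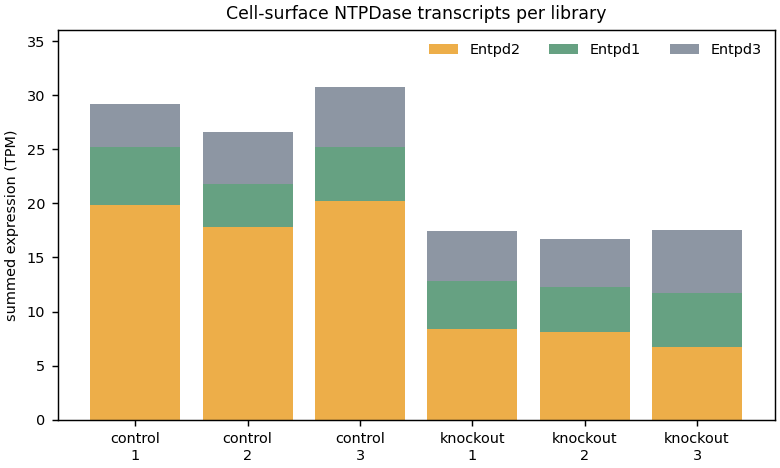
Stacked TPM of Entpd2, Entpd1 and Entpd3 in each of the 6 libraries (bars start at 0). The stacks reached 26.6 to 30.7 TPM in control and 16.7 to 17.5 TPM in knockout libraries, and the Entpd2 segment was the one that was shorter in every knockout library.

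The later enzymes were close between groups. Nt5e, which encodes CD73, was at 9.70, 6.62 and 8.12 TPM in control libraries and 8.21, 8.17 and 8.88 TPM in knockout libraries (log2 change 0.06, 95% interval −0.28 to 0.39). All 3 knockout values lay inside the control range. Against the NTPDase sum, Nt5e stood at 28.2 ± 4.45 per 100 in control and 48.9 ± 1.85 per 100 in knockout libraries (SD, n = 3), with the lower sum in the denominator. Adk was at 52.5, 52.4 and 40.1 TPM in control libraries and 49.4, 45.9 and 44.9 TPM in knockout libraries (log2 change −0.04, 95% interval −0.29 to 0.22). Control library 3 was the lowest of the 6 for Adk, and all knockout values lay between it and the other two controls.

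Among the receptors for ATP and ADP, P2rx7 stood apart from P2rx4 and P2ry1. P2rx7 encodes an ATP-gated cation channel that opens at high ATP and is known from microglia and oligodendrocyte precursors. It was at 4.11, 3.74 and 4.55 TPM in control libraries and 6.08, 6.05 and 5.58 TPM in knockout libraries, 1.43 times the control mean. Every knockout library was above every control library. The log2 change of 0.43 (SE 0.14, 95% interval 0.11 to 0.75, not adjusted for the number of genes) did not pass over all genes (limma adjusted p = 0.40). P2rx7 lies on chromosome 5 from 122643911 to 122691432 (GRCm38, plus strand), upstream of P2rx4 on the same strand. Its exons share 119 bases with the microRNA gene Mir8115, also on the same strand. Mir8115 was erratic, at 0.0, 18.7 and 1.23 TPM in control libraries and 11.57, 0.0 and 0.0 TPM in knockout libraries. The part of this overlap in the P2rx7 values was not tested.

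The marker lists of cells in which P2rx7 is known were mixed. The 10 microglial markers summed to 312 to 335 TPM in control and 344 to 371 TPM in knockout libraries, 1.09 times the control mean, with 0 of 10 called. Of these, 6 had a log2 change above 0, C1qb and C1qc foremost, and 4 had one below 0 (P2ry12, Tmem119, Csf1r and Trem2), with a median of 0.055. The sum of the 6 precursor markers was 288 to 330 TPM and 337 to 368 TPM, 1.15 times the control mean, but that sum was carried by Olig1 (138 ± 13.2 and 185 ± 14.3 TPM) and Olig2, which was called higher (61.8 ± 4.64 and 97.3 ± 6.01 TPM; SD, n = 3). The other 4 precursor markers had log2 changes below 0, from −1.49 for Gpr17, which was called lower, through −0.30 for Pdgfra and −0.20 for Sox10 to −0.14 for Cspg4, and the median of the list was −0.17. Per 1000 TPM of the microglial sum, P2rx7 was at 13.2, 11.2 and 13.9 in control and 16.4, 17.4 and 16.2 in knockout libraries, so its groups were also apart on that scale. Per 1000 TPM of the precursor sum it was at 13.3 ± 0.433 and 16.6 ± 0.160 (SD, n = 3). The part of these cells in the P2rx7 values was not tested.

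P2rx4, which encodes another ATP-gated channel, known from microglia and neurons, was at 4.83, 4.08 and 5.48 TPM in control libraries and 6.06, 4.46 and 4.37 TPM in knockout libraries. Knockout library 1 was the highest of the 6, and the other 2 knockout libraries lay within the control range (log2 change 0.04, 95% interval −0.36 to 0.43). P2ry1, a receptor for ADP that raises intracellular calcium, was the least abundant member in control cortex, at 2.41, 2.74 and 3.05 TPM, with 3.72, 2.69 and 2.55 TPM in the knockout libraries. Its log2 change was 0.09 (95% interval −0.34 to 0.52), and knockout library 1 was again the highest.

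The adenosine receptors parted as well. Adora1, an inhibitory receptor with high affinity for adenosine, was the most abundant of the 10 genes, at 68.0, 64.8 and 70.9 TPM in control libraries and 62.0, 69.4 and 64.9 TPM in knockout libraries. Its interval was the narrowest of the 10 genes (log2 change −0.05, 95% interval −0.23 to 0.12), and the groups overlapped. Adora2b, a stimulatory receptor of lower affinity, was at 7.26, 5.27 and 7.64 TPM in control libraries and 3.18, 2.31 and 0.90 TPM in knockout libraries. All 3 knockout libraries were below all controls, and they spread widely among themselves. The mean was 6.72 ± 1.27 TPM in control and 2.13 ± 1.15 TPM in knockout libraries (SD, n = 3), 0.317 times the control level. On the log2 scale the difference was −1.36, larger in size than that of Entpd2, but with an SE of 0.29 against 0.12 it did not pass over all genes (95% interval −2.01 to −0.71, limma adjusted p = 0.13). Adora2b lies on chromosome 11 from 62248984 to 62266453 (GRCm38, plus strand), and its exons overlap no other annotated gene.

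Adora2b was the smallest share of the summed adenosine receptor transcripts that was tested, 6.38% ± 1.13 in control and 2.28% ± 1.33 in knockout libraries. Adora1 took 64.5% ± 2.19 and 69.3% ± 1.02 of that sum, and Adora2a, the receptor of striatal neurons, 28.8% ± 3.19 and 28.0% ± 2.10 (SD, n = 3). The sum itself was 102 to 110 TPM in control and 88.0 to 101 TPM in knockout libraries.

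**Figure D3:**
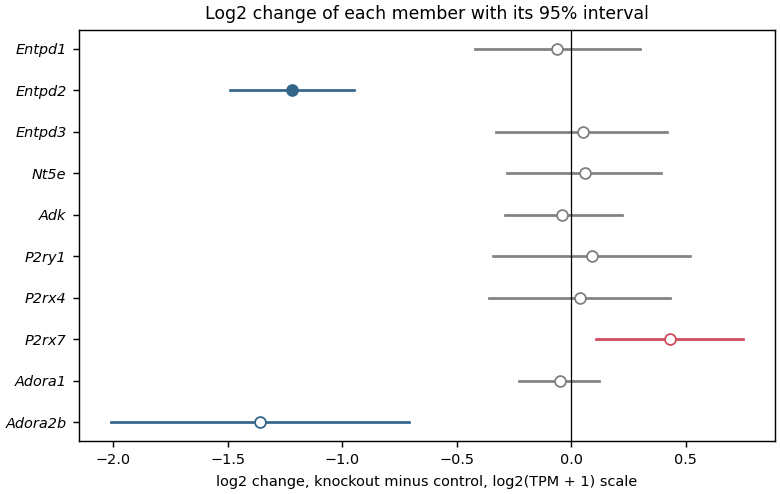
Log2 change (knockout minus control, log2(TPM + 1) scale) of each of the 10 genes with its 95% interval from the fit across all genes, not adjusted for their number. The filled point, Entpd2 at −1.22, is the gene past the adjusted threshold; blue marks genes lower and red a gene higher in every knockout library, and the grey genes overlapped between groups.

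By level, the order of the 10 genes in control cortex was Adora1, Adk, Entpd2, Nt5e, Adora2b, P2rx4, Entpd3, Entpd1, P2rx7 and P2ry1. Adora1, Adk and Entpd2 were apart from each other in every control library, Nt5e and Adora2b overlapped, and P2rx4, Entpd3, Entpd1 and P2rx7 overlapped with one another, and P2ry1 was below all of these. Adora2b also overlapped with P2rx4, Entpd3 and Entpd1. In knockout cortex Adora1 and Adk kept places 1 and 2, Nt5e (8.42 ± 0.40 TPM) and Entpd2 (7.75 ± 0.90 TPM) overlapped at places 3 and 4, P2rx7 stood at place 5, overlapping with Entpd3 and P2rx4, and Adora2b was last, overlapping with P2ry1. Among all genes tested, 51.3% had a lower control mean than Entpd2, and 31.4% a lower knockout mean. For Adora2b these shares were 28.3% and 10.0%, and for P2rx7 19.6% and 26.0%.

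Entpd2 was set beside astrocyte markers, since NTPDase2 is known from cells of the astrocyte lineage. Per 1000 TPM of the summed 10 markers, Entpd2 was at 14.4, 13.8 and 14.8 in control and 8.02, 7.95 and 6.75 in knockout libraries, 0.529 times the control mean. The astrocyte sum was 0.758 times the control level, with log2 changes below 0 in 8 of the 10 markers and above 0 in Aldh1l1 and Atp1b2. In TPM its largest falls were those of Slc1a3 (265 to 112) and Mlc1 (196 to 89.9). S100b, Slc1a2 and Gja1 stood at 0.384, 0.671 and 0.718 times the control mean. Gfap, Aldoc, Aqp4, Atp1b2 and Aldh1l1 stood at 0.879, 0.886, 0.945, 1.03 and 1.39 times it. Single markers gave different pictures. Slc1a3, S100b and Mlc1 were themselves called lower. Their log2 changes of −1.23, −1.29 and −1.11 were close to that of Entpd2 (−1.22), so a ratio to them changes little. Entpd2 per 100 TPM of Slc1a3, the glutamate transporter GLAST, was 7.29 ± 0.373 in control and 6.91 ± 0.945 in knockout libraries, and per 100 of S100b, a calcium-binding protein, 80.2 ± 9.19 and 83.6 ± 9.14, which overlap in both cases. Per 100 of Mlc1 it was 9.89 ± 0.926 and 8.61 ± 0.640, where 1 knockout library reached into the control range. Per 100 of Aqp4, the endfoot water channel, it was 39.4 ± 3.38 and 16.7 ± 1.48, and per 100 of Aldh1l1, a folate enzyme, 35.1 ± 3.94 and 10.0 ± 0.626 (all SD, n = 3). Per 1000 TPM of the 8 radial glial markers, whose sum was 1155 to 1383 TPM in control and 1342 to 1498 TPM in knockout libraries, Entpd2 was at 15.3 ± 0.840 and 5.41 ± 0.774. Fabp7 alone made up 71.9% of that sum over all libraries. Of the 8 markers, 5 had a log2 change above 0 and 3 had one below 0, with a median of 0.145. Vim (called higher) and Nes were higher in every knockout library than in every control library. Hopx (called lower), Hes5 and Tnc were lower in every knockout library than in every control library. Adora2b per 1000 of the astrocyte sum was 4.97 ± 0.786 and 2.07 ± 1.08. The part of astrocyte number in these values was not tested.

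**Figure D4:**
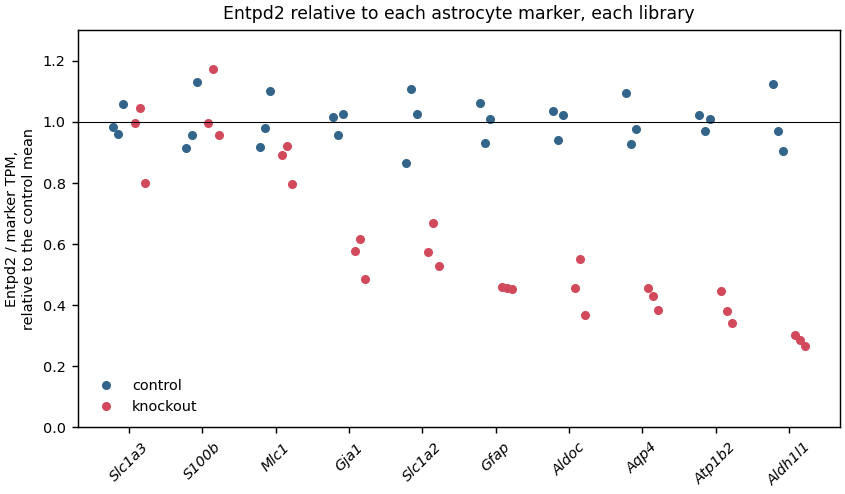
Entpd2 TPM divided by the TPM of each of the 10 astrocyte markers, relative to the control mean of that ratio (line at 1); points are single libraries, control in blue and knockout in red. The knockout ratios overlap those of control for Slc1a3, S100b and Mlc1, which were themselves called lower in the knockout. For the other 7 markers, the means of the knockout ratios lie between 0.286 (Aldh1l1) and 0.591 (Slc1a2) of the control mean.

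Genes whose levels followed Entpd2 most closely over the 6 libraries were taken by Pearson's r of log2(TPM + 1). The search covered 10987 genes averaging 5 TPM or more, with predicted and clone-based gene models left out. The closest were Rrnad1 (r = 0.992), Slc13a5 (0.989), Mlc1 (0.988), Cyp20a1 (0.987) and S1pr1 (0.985), and the 6 points share the 2 groups. Slc13a5, a citrate transporter, had 9.81 ± 0.904 TPM in the controls and 5.48 ± 0.427 TPM in the knockouts (limma adjusted p = 0.068). Mlc1, which is mutated in a leukodystrophy and is made by astrocytes, fell by 1.11 on the log2 scale (limma adjusted p = 0.0015), and S1pr1, a sphingosine-1-phosphate receptor, fell from 83.4 ± 4.26 to 45.3 ± 4.48 TPM (SD, n = 3; limma adjusted p = 0.0051). Rrnad1 was at 25.0 ± 0.972 and 19.5 ± 0.501 TPM and Cyp20a1 at 10.2 ± 0.290 and 7.90 ± 0.490 TPM (limma adjusted p = 0.23 and 0.41).

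The rest of the pathway was taken from a list of 57 genes in 7 classes, of which 40 were tested and 17 were under a mean of 1 TPM. With limma 1 was lower in the knockout, Gja1, and 0 were higher, beside 0.287% and 0.1% of all genes tested. Without adjustment p was under 0.05 for 5 lower genes and 1 higher gene, beside 5.3% and 3.42% of all genes. The median log2 change of the 40 genes was −0.098. Knockout values lay below all control values in 7 genes and above them in 2, and 31 overlapped, beside 8.98% and 5.2% of all genes tested.

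Among genes of ATP release, Gja1, which encodes connexin 43 and is itself one of the astrocyte markers, fell from 72.9, 69.5 and 73.4 TPM to 54.1, 49.2 and 51.5 TPM. The groups were apart, with a log2 change of −0.47 (SE 0.074, limma adjusted p = 0.041), but Gja1 no longer passed once any single library was dropped, in 6 of 6 such fits (adjusted p = 0.10 to 0.21), nor with the replicate number as a block (adjusted p = 0.11). Gjb6, connexin 30 of astrocytes, chosen after its values were seen, was at 20.2, 18.7 and 17.1 TPM in the controls and 12.1, 10.6 and 12.7 TPM in the knockouts (log2 change −0.62, limma adjusted p = 0.073). Panx2, a pannexin and the most abundant of the 6 tested genes of this class over all libraries, was at 71.3 ± 6.88 and 69.5 ± 6.24 TPM (SD, n = 3).

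Of the 9 other ectoenzymes tested, 0 passed. The most abundant, Entpd6, whose product is a largely intracellular and secreted NTPDase, was at 71.5 ± 4.18 and 69.9 ± 3.01 TPM. None of the 2 P2X and 4 P2Y genes tested passed either. P2rx2 was at 7.73 ± 0.568 and 8.60 ± 1.57 TPM. P2ry12, the ADP receptor of microglia, was at 13.3, 11.3 and 11.7 TPM in the controls and 9.62, 9.27 and 8.98 TPM in the knockouts (log2 change −0.34, limma adjusted p = 0.40). Its groups did not overlap and its direction was opposite to that of P2rx7. Adora2a was at 30.3 ± 3.58 and 26.5 ± 3.44 TPM.

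Uptake and intracellular handling of adenosine had 0 calls among 4 transporters and 14 enzymes. Slc29a4, a plasma membrane monoamine and nucleoside transporter, was at 115 ± 7.66 and 107 ± 13.5 TPM, and Nt5c3, a cytosolic nucleotidase, at 101 ± 7.67 and 99.7 ± 11.99 TPM (SD, n = 3). Ada, which deaminates adenosine and was chosen after its values were seen, was at 8.03, 7.75 and 6.42 TPM in the controls and 5.20, 3.59 and 6.24 TPM in the knockouts, apart by a narrow margin (log2 change −0.50, limma adjusted p = 0.49). Slc29a1, the equilibrative transporter ENT1, also chosen after its values were seen, was at 48.2, 54.0 and 47.5 TPM and 61.8, 55.5 and 56.9 TPM (log2 change 0.22, limma adjusted p = 0.51).

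**Figure D5:**
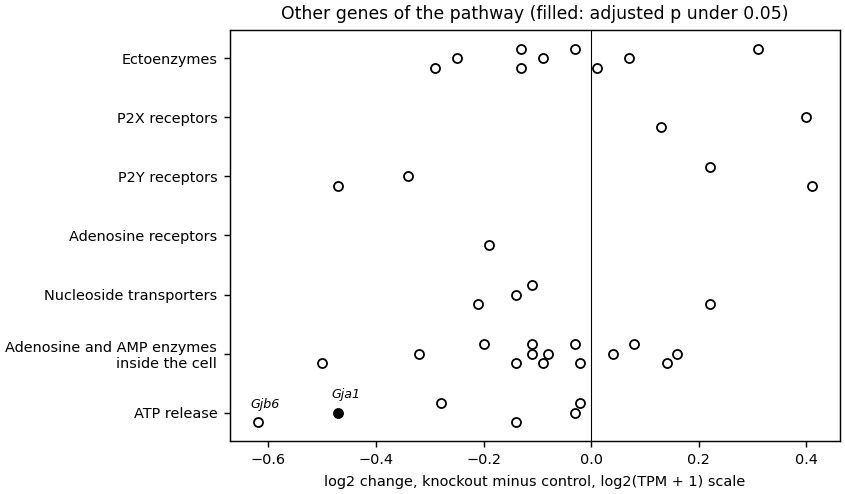
Log2 change (knockout minus control, log2(TPM + 1) scale) of the 40 other pathway genes tested, by class; each circle is a gene and small vertical offsets only separate circles. Gja1 at −0.47 is the filled circle, past the adjusted threshold, and Gjb6 at −0.62 is open.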

How the data were processed

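The 6 libraries hold 1 value per gene and sample in TPM, made by the authors with STAR 2.4.1d and RSEM 1.3.0, per the submitters' processing notes, which name the mouse builds GRCm38.p4 and mm10. Annotation, strand setting and trimming: not given in the sources used here. TPM sums to the same total in each library, so a rise of abundant genes lowers others, and read depth and counting error cannot be recovered. Groups and replicate numbers came from the titles. The series' design text gives 3 brains in each group, so the replicates are brains.

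TPM was used as deposited. Genes averaging 1 TPM or more were fitted as log2(TPM + 1) with limma 3.58.1 (R 4.3.3; lmFit, eBayes with trend), group as the only term, two-sided, Benjamini-Hochberg over 14994 genes, threshold 0.05. Log2 changes on this scale understate those of low genes. The script was tested on simulated data. The members, the pathway list and the marker lists were chosen with earlier results of these data known. Named genes were the 10 members, Qk, the pathway genes past the threshold, the most abundant gene of each pathway class over all libraries, and the 5 genes most like a called member; others are marked as chosen after their values were seen. Acp3 appears under its older symbol, Acpp. Alternatives were other pseudocounts, filters, scaling, variance trend, a replicate block and leaving out each library. Same-numbered libraries were not taken as pairs.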

Additional observations from a re-analysis of the deposited data

How the results depend on the processing

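Entpd2 passed the threshold under all 13 alternatives, with log2 changes of −1.31 to −1.13 and adjusted p of 0.0019 to 0.046; the highest, 0.046, came without control replicate 3. No other member passed in any alternative (lowest adjusted p 0.11 for Adora2b and 0.22 for P2rx7), and with a mean of at least 5 TPM required, Entpd1, Entpd3, P2rx4, P2ry1 and Adora2b were not tested. The signs of small changes were not stable: leaving out a library gave −0.163 to 0.026 for Adk, −0.162 to 0.006 for Entpd1, −0.049 to 0.137 for Entpd3, −0.069 to 0.175 for Nt5e, −0.091 to 0.12 for P2rx4, −0.041 to 0.164 for P2ry1, −0.074 to 0.009 for Entpd6, −0.083 to 0.081 for Nt5c3 and −0.106 to 0.042 for Panx2, and median-of-ratios scaling gave 0.007 for Nt5c3. Over all genes, 28 fell and 9 rose with no filter on low values, and 20 and 8 without the variance trend. Leaving out a library gave 16 to 34 falls and 4 to 19 rises, with fewer samples in each fit. The one other pathway gene called, Gja1, gave 0 calls with no filter, without the trend, with the replicate block and, at both ends of the range, whichever library was dropped. With the replicate number as a block, 30 genes fell and 8 rose, and Entpd2 kept its call (adjusted p = 0.022). Same-numbered libraries correlated at 0.035, 0.031 and 0.013 in their deviations from the group means. Control and knockout libraries of different number correlated at −0.0422 to 0.0099. All 6 correlated best with their own number, but deviations within a group are tied to each other, so these are not 6 independent results. The design does not give pairs, and values this small cannot decide whether the numbers mark them. Since TPM keeps no depth, the precision of low values such as Adora2b in the knockout is unknown.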
